A study of Mus musculus with 8 samples.

Results

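Kruppel-like factors (KLFs) are zinc finger transcription factors that bind CACCC and GC-rich elements in gene promoters, and 10 of their genes, Klf2, Klf3, Klf4, Klf5, Klf6, Klf7, Klf9, Klf10, Klf13 and Klf15, are described here in cells sorted from tumor-bearing mouse lungs. The 10 were taken by name from the 27179 genes counted, which also held rows for 7 other Klf genes and for 9 genes of the related Sp family. They were selected with values of the QZ1-hi and QZ1-lo comparison known, so their own differences are given as a description and carry no p value.

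RNA-seq was carried out on 8 libraries, 4 of the QZ1-hi and 4 of the QZ1-lo population. The source was the lung of C57BL/6 mice (C57BL/6J in the study's methods) aged 18 to 22 weeks that bore Eml4-Alk tumors, induced 11 to 12 weeks earlier by an intratracheal adenovirus with Cas9 and guide RNAs that rearranges Eml4 and Alk. All mice received 4.5 nmol of QZ1-(PEG2K), a quenched peptide probe that fluoresces and tags nearby cells once a protease cuts its linker, and the lungs were removed 2 h after the injection. Viable cells without CD45 or CD11b on their surface were sorted by probe signal gated against EpCAM, at 100000 cells or more per population, so that each library is a mixture of cell types that differ in probe signal. Tumor cells were not sorted apart from other lung cells, and the purity of the fractions was not assessed in the study. No healthy lungs were among the libraries.

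Among vertebrate KLFs, KLF2 and KLF4 are best known as the factors that laminar blood flow induces in endothelium, through the MEKK3, MEK5 and ERK5 kinases and MEF2 factors, and that keep vessels quiescent, anticoagulant and resistant to inflammation. KLF5 is known for its role in proliferating and developing epithelia, the lung included. KLF6 and KLF10 are early response factors linked to injury and TGF-beta, KLF9 and KLF15 are induced by glucocorticoids, and KLF3 and KLF13 act largely as repressors through CtBP and Sin3 complexes. KLF4 is also made in epithelia, fibroblasts and macrophages, so none of these genes marks a single cell type.

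Klf2 and Klf4 transcripts were more than 3-fold higher in the QZ1-hi population, Klf5 was 2.52-fold lower, and Klf9 was 1.51-fold higher. Of the 10 genes, 3 (Klf2, Klf4 and Klf9) were higher and 1 (Klf5) was lower at an adjusted p under 0.05 in the edgeR quasi-likelihood fit, beside 9.88% and 8.21% of the 15583 genes tested. For 5 of the 10 the QZ1-hi libraries all lay above the QZ1-lo libraries, and for 1 they all lay below, beside 11.9% and 10.7% of all genes. Because the genes were chosen from this contrast, nothing is read from these shares. In bulk RNA, fewer cells of a type that makes a transcript and less of it per cell cannot be told apart. Levels are given below in CPM, counts scaled to a common library size with edgeR's TMM method, and differences as log2 fold changes of QZ1-hi relative to QZ1-lo with a standard error (SE) from the fit.

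**Figure D1:**
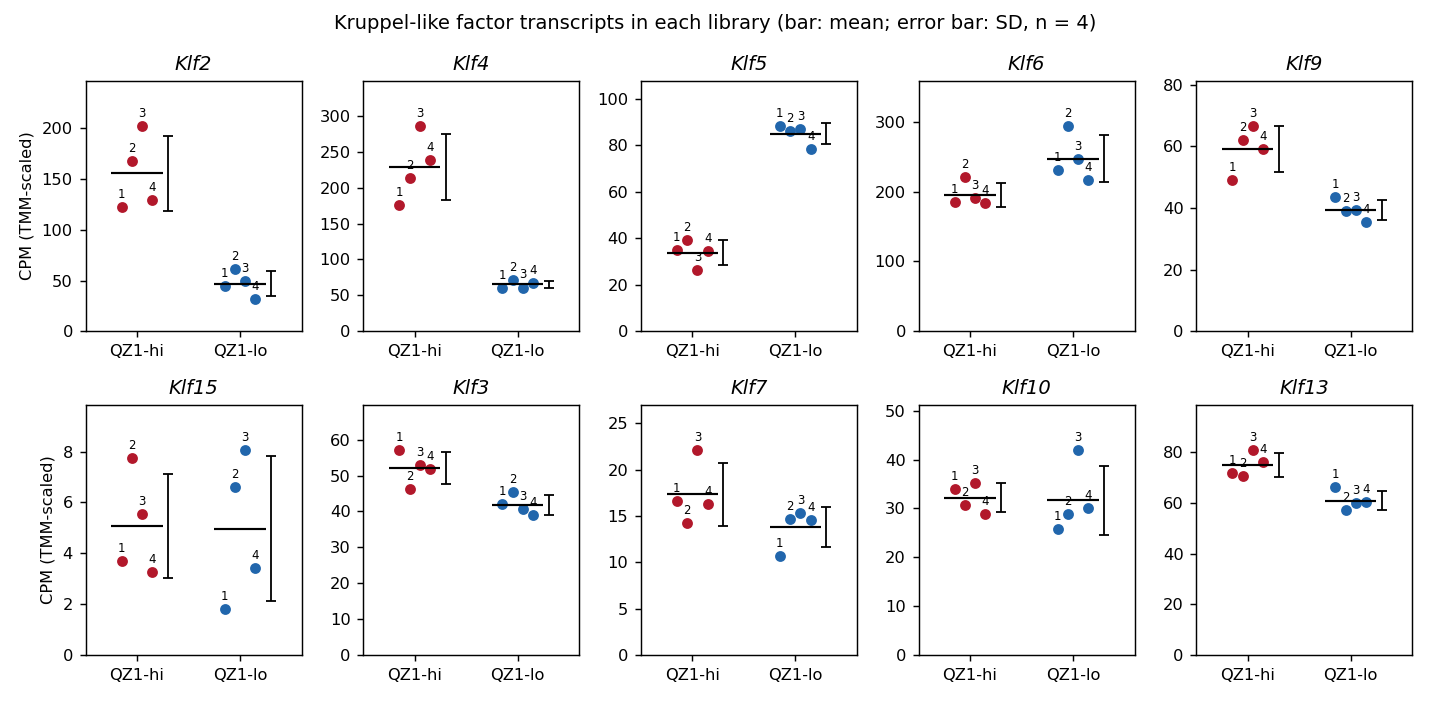
Levels of the 10 Klf genes in each library, in CPM on a linear axis from 0. Points are libraries labelled by replicate, horizontal bars are means, and error bars are SD (n = 4). The populations are apart for Klf2, Klf4, Klf5, Klf9, Klf3 and Klf13 and overlap for Klf6, Klf7, Klf10 and Klf15.

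The bases upstream of Klf2 and Klf4 are shown because these genes had the largest increases of the 10 and because MEF2 factors, the last step of the flow cascade, are known to act on the Klf2 promoter. Both stretches come from RefSeq on GRCm38.p6, the build also called mm10, and end before the first annotated transcript start. The Klf2 stretch covers chr8:72318812-72319032 on the plus strand, and the Klf4 stretch covers chr4:55532476-55532725 on the minus strand. Capitals mark a match to the MEF2 motif, searched on both strands.
Klf2: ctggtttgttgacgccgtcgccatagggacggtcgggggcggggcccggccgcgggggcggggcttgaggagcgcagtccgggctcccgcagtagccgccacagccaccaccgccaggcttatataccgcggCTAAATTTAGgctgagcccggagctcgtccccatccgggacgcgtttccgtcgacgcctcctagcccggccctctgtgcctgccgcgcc
Klf4: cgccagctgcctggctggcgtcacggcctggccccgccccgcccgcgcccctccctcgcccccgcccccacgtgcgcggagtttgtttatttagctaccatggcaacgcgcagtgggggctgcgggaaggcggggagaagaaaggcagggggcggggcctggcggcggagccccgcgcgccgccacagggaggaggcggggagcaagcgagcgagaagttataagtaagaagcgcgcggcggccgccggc
The match in Klf2, CTAAATTTAG, began 118 bases before the RefSeq start. Promoters of 250 bases were found for 8 of the 10 genes, and no match to the MEF2 motif was present in the other 7 (Klf3, Klf4, Klf6, Klf7, Klf9, Klf13 and Klf15), where 3.01% of 27025 mouse promoters of this length held one. No promoter of the 8 held a match to the CArG motif of serum response factor, present in 1.40% of all promoters. The 250-base windows ended at the RefSeq start, and some reached into other annotated transcripts. In the Klf3 window 117 bases lay before any annotated start, and in the Klf7 window 0 did. The GC box GGGCGG occurred 4 times in the window of Klf4, 6 times in that of Klf3 and 2 times in that of Klf2. It was found in 32.9% of all promoters on either strand. The shorter CACCC sequence, found in 51.3% of all promoters, was absent from the windows of Klf4 and Klf6 and occurred 5 times in that of Klf3. GC content ran from 59.2% for Klf7 to 78.4% for Klf3, against a median of 52.0% over all promoters. These matches describe letters in the sequence, and no binding was measured.

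Klf4 (Entrez Gene 16600, chr4:55527143-55532466, minus strand) had the largest increase of the 10 genes. It was measured at 176, 214, 286 and 239 CPM in the QZ1-hi libraries and at 60.6, 71.7, 60.9 and 67.3 CPM in the QZ1-lo libraries. All QZ1-hi libraries were above all QZ1-lo libraries, replicate 3 was the highest, and the QZ1-lo libraries spanned 1.18-fold. The means were 229 ± 46.0 and 65.1 ± 5.36 CPM (SD, n = 4 each), which gave a log2 fold change of 1.81 (SE 0.154, 95% interval 1.47 to 2.15). In order of fold change Klf4 was 911th from the top of 15583 genes, so many genes had a larger one.

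Klf2 (Entrez Gene 16598, chr8:72319033-72321656, plus strand) followed, at 123, 168, 202 and 129.7 CPM in QZ1-hi and 45.0, 61.3, 49.9 and 32.1 CPM in QZ1-lo. Again the populations did not overlap and QZ1-hi replicate 3 was the highest. The means were 156 ± 36.9 and 47.1 ± 12.1 CPM (SD, n = 4 each), with a log2 fold change of 1.73 (SE 0.215, 95% interval 1.25 to 2.20). Klf2 varied more within QZ1-lo than Klf4 did, by 1.91-fold between replicates 2 and 4.

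Klf5 (Entrez Gene 12224, chr14:99298691-99315036, plus strand) was the gene of the 10 that was lower in QZ1-hi by more than 1 log2 unit. Its levels were 34.8, 39.2, 26.4 and 34.4 CPM in QZ1-hi and 88.2, 86.2, 87.1 and 78.4 CPM in QZ1-lo. Every QZ1-hi library was under every QZ1-lo library, and replicate 3, where Klf2 and Klf4 were highest, had the least Klf5. Means were 33.7 ± 5.33 and 85.0 ± 4.45 CPM (SD, n = 4 each), and the log2 fold change was -1.33 (SE 0.134, 95% interval -1.63 to -1.04).

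Klf6 (Entrez Gene 23849, chr13:5861482-5870394, plus strand), an injury-responsive factor also described as a tumor suppressor, had more counts over the 8 libraries than any other gene of the 10. It was found at 185, 220.5, 191 and 184 CPM in QZ1-hi and at 231, 294, 246 and 216 CPM in QZ1-lo. QZ1-hi replicate 2 overlapped with QZ1-lo replicate 4, and the difference of -0.34 (SE 0.127) on the log2 scale did not pass the threshold. Scaling by library size only, under which the median of all genes shifted from 0.02 to -0.44, gave -0.79 and put Klf6 past it, while the distance from that median was nearly the same at -0.36 and -0.35.

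Klf9 (Entrez Gene 16601, chr19:23141226-23168134, plus strand), a glucocorticoid-induced factor, was at 49.2, 62.0, 66.6 and 59.2 CPM in QZ1-hi and 43.5, 39.2, 39.3 and 35.4 CPM in QZ1-lo. The lowest QZ1-hi library lay just above the highest QZ1-lo library. The log2 fold change was 0.59 (SE 0.127, 95% interval 0.31 to 0.87). It was 0.11, and no longer past the threshold, with scaling by library size only. Klf15 (Entrez Gene 66277, chr6:90462576-90475238, plus strand), the other glucocorticoid-induced factor and a regulator of amino acid and fuel use, was scarce, with 3.69, 7.75, 5.55 and 3.28 CPM in QZ1-hi and 1.79, 6.59, 8.07 and 3.44 CPM in QZ1-lo. Its libraries overlapped fully and spanned 4.51-fold within QZ1-lo, and the 95% interval of its log2 fold change ran from -0.97 to 1.03.

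The repressors Klf3 (Entrez Gene 16599, chr5:64803388-64832901, plus strand) and Klf13 (Entrez Gene 50794, chr7:63886351-63938915, minus strand) differed by little but evenly. Klf3 was at 57.2, 46.3, 53.0 and 51.7 CPM in QZ1-hi and 42.0, 45.4, 40.6 and 39.0 CPM in QZ1-lo, with a log2 fold change of 0.32 (SE 0.113). Klf13 was at 71.9, 70.6, 80.9 and 76.0 CPM in QZ1-hi and 66.1, 57.4, 59.9 and 60.2 CPM in QZ1-lo, with a log2 fold change of 0.30 (SE 0.106). In both genes the QZ1-hi libraries all exceeded the QZ1-lo libraries, and neither passed the threshold over all genes. With library size scaling the values were -0.13 and -0.17, and relative to the median of all genes 0.32 and 0.27.

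Klf13 and Klf3 were also among the steadiest transcripts within a population. The SD of log2 CPM between libraries of one population was 0.087 for Klf13 and 0.11 for Klf3, lower than in all but 1.27% and 3.23% of the genes tested, where the median gene had 0.36. Klf2, at 0.36, was near the median of all genes, and Klf15, at 0.79, was more variable than 82.9% of them. Lower counts give larger SDs, and Klf15 was the least abundant of the 10. Its counts were still 55 to 157 per QZ1-hi library and 60 to 223 per QZ1-lo library. Its level exceeded that of 33.2% of the genes tested, and the part of depth in its spread was not tested.

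Klf7 (Entrez Gene 93691, chr1:64029447-64122282, minus strand), best known from neurons, and Klf10 (Entrez Gene 21847, chr15:38291463-38300706, minus strand), a TGF-beta-inducible early gene, overlapped between the populations. Klf7 was at 16.7, 14.2, 22.1 and 16.3 CPM in QZ1-hi and 10.6, 14.7, 15.3 and 14.6 CPM in QZ1-lo, with a 95% interval of the log2 fold change from -0.08 to 0.74. Of Klf7's annotation, 39.4% of the exonic bases lie opposite to Gm13748 and Gm26649, and the strand setting of the counting is not given in the sources used here, so part of its counts may belong to those genes. Klf10 was at 34.0, 30.7, 35.3 and 29.0 CPM in QZ1-hi and 25.7, 28.8, 42.0 and 30.0 CPM in QZ1-lo, with an interval from -0.33 to 0.38. The interval of Klf7 leaves room for an increase of up to 0.74 and for little decrease. That of Klf10 leaves room for small differences in either direction.

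**Figure D2:**
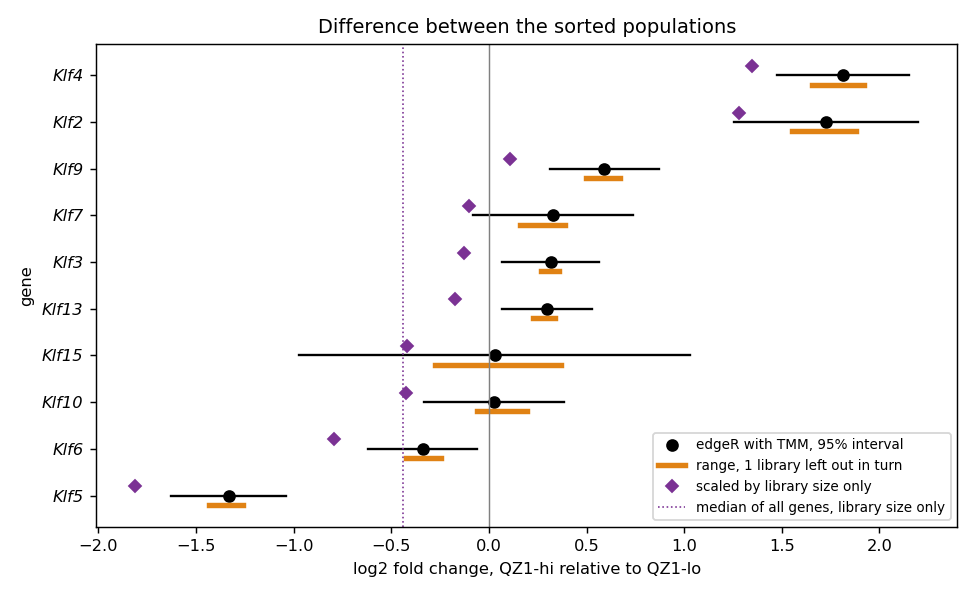
Log2 fold change of each Klf gene, QZ1-hi relative to QZ1-lo, ordered by size. Black points and lines are the edgeR estimate with TMM scaling and its 95% interval, orange bars the range when each library is left out in turn, purple diamonds the value with scaling by library size only, and the dotted line the median of all genes under that scaling (-0.44). Klf2, Klf4 and Klf5 lie on 1 side of 0 in every case, whereas Klf3, Klf7 and Klf13 change sign with library size scaling.

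Levels of different genes were compared per kb of merged exon, since longer genes collect more reads. In QZ1-hi the order from the top was Klf2 (84.3 ± 20.0 CPM per kb, SD, n = 4), Klf4 (75.0 ± 15.1), Klf6 (44.4 ± 3.91) and Klf9 (12.3 ± 1.53), followed by Klf13, Klf10, Klf5 and Klf3. Klf2 and Klf4 overlapped in this order, whereas Klf4 and Klf6, and Klf6 and Klf9, did not. Further down, Klf9 overlapped with Klf13, Klf10 with Klf5 and Klf5 with Klf3, while Klf13 and Klf10 did not overlap. In QZ1-lo the order was Klf6 (56.2 ± 7.67 CPM per kb), Klf2 (25.5 ± 6.55), Klf4 (21.4 ± 1.76) and Klf5 (16.3 ± 0.856), then Klf9, Klf13, Klf10 and Klf3. There Klf2 and Klf4 overlapped again, and Klf6 stood clear of Klf2 and Klf4 of Klf5. Klf9 overlapped with Klf13 and Klf13 with Klf10, and neither Klf5 and Klf9 nor Klf10 and Klf3 overlapped. By mean level Klf6 thus moved from the third place in QZ1-hi to the first in QZ1-lo. Klf5 moved from the seventh place, where it overlapped with Klf10 and Klf3, to the fourth.

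Expressed as a share of all Klf counts per kb within a library, a measure that needs no scaling between libraries, Klf2 and Klf4 together made up 61.9% ± 3.87 of the pool in QZ1-hi and 29.5% ± 1.53 in QZ1-lo (SD, n = 4 each). The share was 57.6%, 60.8%, 67.0% and 62.0% in the QZ1-hi libraries and 29.1%, 31.8%, 28.7% and 28.5% in the QZ1-lo libraries. Klf5 and Klf6 together made up 20.2% ± 2.97 in QZ1-hi and 45.9% ± 1.03 in QZ1-lo. The 10 genes held 97.2% of the pool in QZ1-hi and 95.2% in QZ1-lo, so that the 7 other Klf genes added little. Shares of 1 pool are tied to each other, as a larger share of Klf2 and Klf4 lowers all others.

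**Figure D3:**
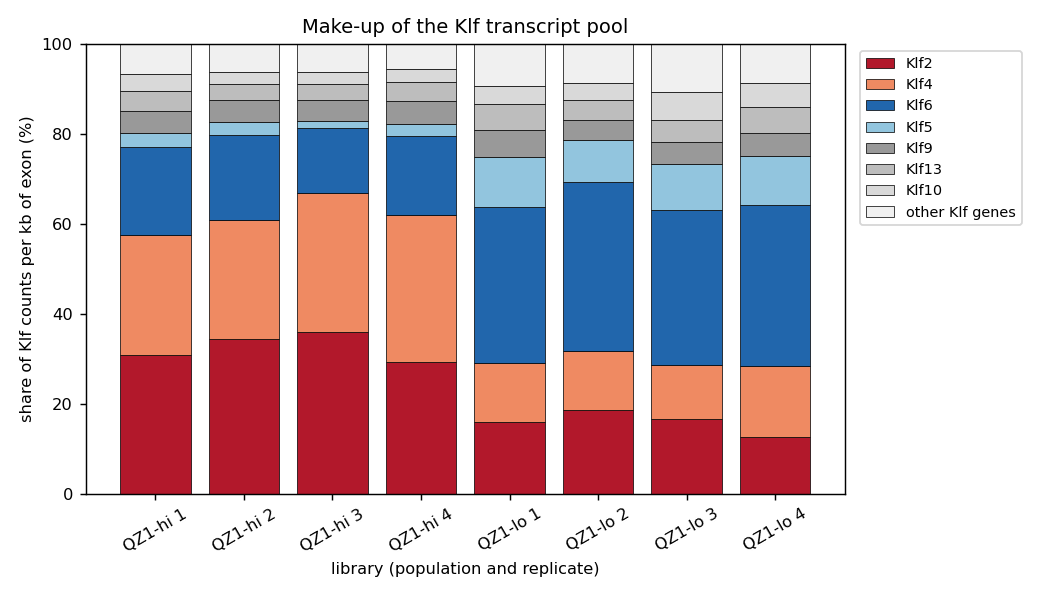
Make-up of the Klf transcript pool in each library, as the share (%) of the summed counts per kb of exon over 17 Klf genes. Red shades are Klf2 and Klf4, blue shades Klf6 and Klf5, and grey shades the remaining genes. The red shades together take 57.6% to 67.0% in QZ1-hi libraries and 28.5% to 31.8% in QZ1-lo libraries.

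Ratios of raw counts inside a library gave the same picture without any scaling. The log2 ratio of Klf4 to Klf5 counts was 2.34, 2.45, 3.44 and 2.80 in QZ1-hi and -0.54, -0.27, -0.52 and -0.22 in QZ1-lo, a mean difference of 8.82-fold. The ratio of Klf4 to Klf6 moved from -1.92 ± 0.16 in QZ1-lo to 0.21 ± 0.32 in QZ1-hi (SD, n = 4 each), or by 4.37-fold. The ratio of Klf4 to Klf2, in contrast, was 0.56 ± 0.23 in QZ1-hi and 0.50 ± 0.39 in QZ1-lo, so both genes differed between the populations by nearly the same factor. Within QZ1-lo this ratio still ranged from 0.23 to 1.07, with replicate 4 the highest.

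Several sets of cell type markers also differed between the populations. All 10 endothelial markers, among them Cdh5, Pecam1, Tek and Vwf, were higher in QZ1-hi, and their summed level ran from 1003 to 2347 CPM in QZ1-hi and from 70.1 to 307 CPM in QZ1-lo, and none of the 10 was absent from a population. Of 8 mesenchymal markers 5 were higher (sums of 942 to 1841 and 37.4 to 236 CPM), and all 4 mesothelial markers were higher (38.4 to 268 and 5.93 to 36.5 CPM). Of 11 epithelial markers 9 were lower, including Epcam, while Sftpc was higher, and the sums overlapped (5464 to 9762 and 6743 to 10152 CPM). Probe signal was gated against EpCAM, but the study gives the limits of both gates in probe signal alone. Sftpc was at 4064 ± 1124 and 2371 ± 443 CPM and Sftpb at 2004 ± 495 and 1526 ± 448 CPM (SD, n = 4 each). These genes made up most of the QZ1-hi sums, which thus do not follow the 9 lower markers. None of 7 leukocyte markers passed the threshold with edgeR, DESeq2 or limma or an unadjusted p under 0.05. Their sums were 2886 to 6195 and 2104 to 4082 CPM. Most of this was Lyz2, at 3600 ± 1453 and 2534 ± 859 CPM (SD, n = 4 each), so the sum mainly follows that gene. Ptprc, which encodes CD45, was at 131 ± 64.2 and 125 ± 30.0 CPM (SD, n = 4 each) despite the gate. Of 6 erythroid and platelet markers 2 were higher, the platelet genes Pf4 and Ppbp, and sums were 71.1 to 484 CPM in QZ1-hi and 133 to 1470 CPM in QZ1-lo. The part of these cell types in the Klf differences was not tested.

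Klf2, Klf4 and Klf5 were set beside the endothelial markers library by library. The mean endothelial sum was 10.1-fold higher in QZ1-hi, against 3.51-fold for Klf4 and 3.31-fold for Klf2. Within QZ1-lo the endothelial sum differed 4.38-fold between replicates 4 and 3, while Klf4 stood at 67.3 and 60.9 CPM and Klf5 at 78.4 and 87.1 CPM in the same libraries. Klf2 was at 32.1 and 49.9 CPM there. QZ1-hi replicate 3 had the highest endothelial and mesenchymal sums together with the most Klf2 and Klf4 and the least Klf5 of its population, but replicate 1, with the second highest endothelial sum, had the least Klf4 and Klf2. Without QZ1-hi replicate 3, the log2 fold change was 1.66 for Klf4, 1.55 for Klf2 and -1.26 for Klf5.

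**Figure D4:**
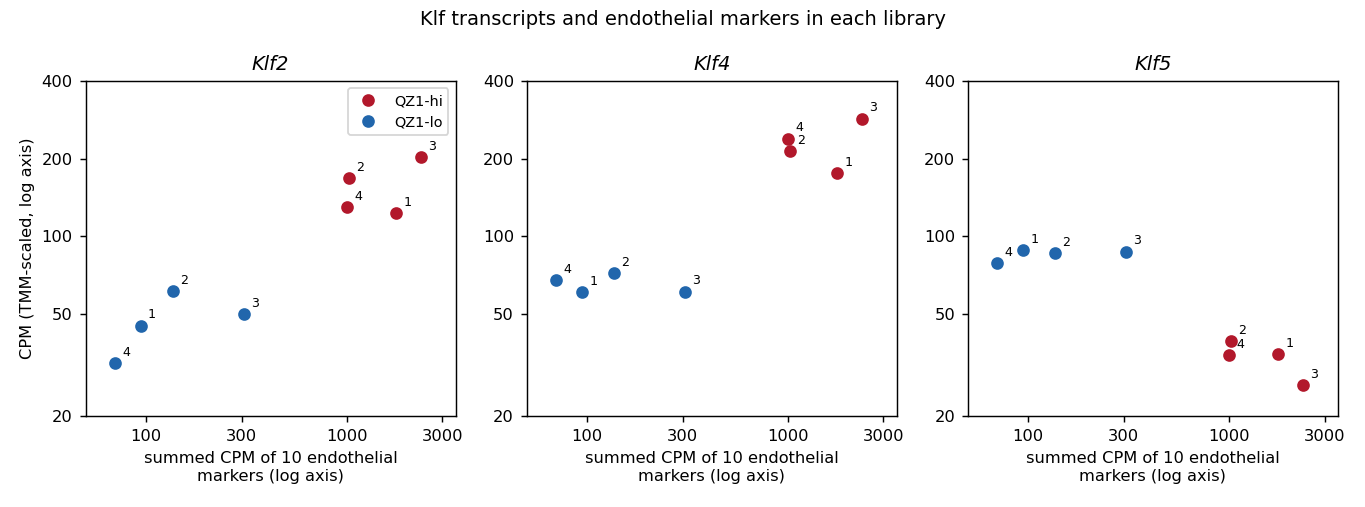
Klf2, Klf4 and Klf5 (CPM, log axis) against the summed CPM of 10 endothelial markers (log axis) in each library, labelled by replicate. Within QZ1-lo the marker sum spans 70.1 to 307 CPM while Klf4 stays between 60.6 and 71.7 CPM and Klf5 between 78.4 and 88.2 CPM.

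The remaining Klf and Sp genes showed no difference past the threshold. Of 16 such genes 10 were tested, and 0 were higher and 0 lower in edgeR, with a median log2 fold change of -0.14 where all genes had 0.02. At an unadjusted p under 0.05 there was 1 gene, Klf12, a repressor, at 6.78 ± 2.08 and 2.54 ± 1.96 CPM in QZ1-hi and QZ1-lo (SD, n = 4 each, log2 fold change 1.41, SE 0.469, edgeR adjusted p = 0.0613). Klf12 passed the threshold with DESeq2 (1.41), with limma (1.81) and without QZ1-lo replicate 3 (2.09). Sp1 and Sp3, broadly expressed factors that bind GC boxes, differed by -0.14 (SE 0.102) and 0.09 (SE 0.129) on the log2 scale. Klf17, Sp7, Sp8 and Sp9 never exceeded 3 counts, the floor used here, which equals 0.0894 to 0.179 CPM by library.

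Of 14 cofactor and ubiquitin ligase genes, 1 was lower and 0 were higher, with a median log2 fold change of -0.06. The gene was Sin3b, a scaffold of the histone deacetylase complex that repressive KLFs bind, at 40.2 ± 2.65 CPM in QZ1-hi and 59.6 ± 6.62 CPM in QZ1-lo (SD, n = 4 each, log2 fold change -0.57, SE 0.120, edgeR adjusted p = 0.00694). At an unadjusted p under 0.05 the counts were 1 higher and 3 lower, and DESeq2 and limma each called 0 and 2.

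Of the 12 genes of the flow cascade upstream of KLF2 and KLF4, 2 were higher and 0 were lower, with a median of 0.05. The 2 were Heg1, a transmembrane partner of the CCM complex that restrains this cascade (log2 fold change 2.86, SE 0.282, adjusted p = 0.000256), and Mef2c, the MEF2 factor most linked to endothelium and muscle (2.58, SE 0.405, adjusted p = 0.00134, both edgeR). Heg1 was at 330 ± 93.0 and 45.3 ± 17.9 CPM and Mef2c at 13.8 ± 3.72 and 2.31 ± 1.53 CPM in QZ1-hi and QZ1-lo (SD, n = 4 each). The 10 others, which encode the kinases, the CCM proteins, the remaining MEF2 factors and the mechanosensor Piezo1, did not pass the threshold. At an unadjusted p under 0.05 there were 3 higher and 1 lower, and DESeq2 and limma each called 3 and 0. Endothelial cells are known to be rich in Heg1 and Mef2c, and the endothelial marker sum was also higher in QZ1-hi. Within QZ1-lo, Heg1 was lowest (28.3 CPM) but Mef2c highest (4.54 CPM) in replicate 4, where that sum was lowest (70.1 CPM). The part of endothelial cells in these 2 differences was not tested.

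Of 7 endothelial genes known to be raised by KLF2 and KLF4, all 6 that could be tested were higher, with a median log2 fold change of 2.93. Thbd, which encodes the anticoagulant receptor thrombomodulin, was at 329.5 ± 129 CPM in QZ1-hi and 40.0 ± 21.6 CPM in QZ1-lo (SD, n = 4 each, log2 fold change 3.04, SE 0.381, edgeR adjusted p = 0.000481). Nos3, the endothelial nitric oxide synthase, had a log2 fold change of 3.01 (SE 0.443), S1pr1, the sphingosine-1-phosphate receptor, one of 2.86 (SE 0.442), and the protease gene Adamts4 one of 3.97 (SE 0.605). These 4 fold changes were larger than those of Klf2 and Klf4. Median log2 fold changes were 3.35 for the endothelial markers and 3.11 for the mesenchymal markers. Endothelial cells are known to make these genes as well as the endothelial markers. The part of either cell type in the values of this list was not tested.

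Of 7 endothelial genes known to be held down by KLF2 and KLF4, 3 were higher and 1 was lower in edgeR, with a median of 1.55. At an unadjusted p under 0.05 the counts were 5 and 1, as with DESeq2, and limma called 3 and 1. In the direction of the list's name there was 1 gene. Among the higher were Ace, angiotensin-converting enzyme (log2 fold change 3.05, SE 0.317, adjusted p = 0.000278), and the leukocyte adhesion receptor gene Vcam1 (1.66, SE 0.203, adjusted p = 0.000423, both edgeR). Lower was F3, tissue factor, the trigger of coagulation that epithelia also make, at 38.0 ± 10.7 CPM in QZ1-hi and 123 ± 11.4 CPM in QZ1-lo (SD, n = 4 each, log2 fold change -1.70, SE 0.189, edgeR adjusted p = 0.000278).

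Of 5 genes known as KLF5 targets, 1 was higher and 0 were lower in edgeR, with a median of 0.11, the gene being Myh10, a nonmuscle myosin heavy chain (log2 fold change 0.77, SE 0.229, edgeR adjusted p = 0.0377). At an unadjusted p under 0.05, 2 were lower, and DESeq2 and limma each called 1 of them. Myh10 lost its call with library size scaling (0.27) and without QZ1-hi replicate 2 or 3 or QZ1-lo replicate 1, 2 or 4 (0.61 to 0.81).

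Of 9 genes of the TGF-beta pathway tied to KLF6 and KLF10, 2 were higher and 0 were lower, with a median of -0.04. Eng, the endothelial coreceptor endoglin and also a surface protein stained in the study as CD105, had a log2 fold change of 3.45 (SE 0.412, edgeR adjusted p = 0.000385). Tgfbr2, the type II receptor, had one of 0.43 (SE 0.118, edgeR adjusted p = 0.0266), which turned to -0.05 with library size scaling and lost its call without QZ1-hi replicate 2 or 3 or QZ1-lo replicate 1, 2 or 3 (0.37 to 0.43). Unadjusted, 1 gene was lower at p under 0.05, and it was called by DESeq2 and not by limma.

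Glucocorticoid response genes were read because Klf9 and Klf15 belong to that response. Of 7 genes 4 were higher and 0 were lower, with a median of 0.61. Zbtb16, a zinc finger gene that steroids induce strongly, had a log2 fold change of 1.66 (SE 0.278, edgeR adjusted p = 0.00187), and Nr3c1, the receptor gene, one of 0.44 (SE 0.0971, adjusted p = 0.009, edgeR). Fkbp5, a receptor cochaperone, and Tsc22d3, an anti-inflammatory mediator, had 0.83 (SE 0.241) and 0.61 (SE 0.186). With library size scaling 1 of the 4, Zbtb16, was past the threshold and Nr3c1 turned to -0.02. Fkbp5 and Tsc22d3 both lost their call without QZ1-lo replicate 1 or 3 or QZ1-hi replicate 2, 3 or 4, and Tsc22d3 also without QZ1-lo replicate 4. Unadjusted, 1 gene was lower at p under 0.05, and DESeq2 and limma both called it. Of 4 KLF15 targets tested, 0 were higher and 0 lower in edgeR, 1 and 2 at an unadjusted p under 0.05, 1 and 1 with DESeq2 and 0 and 0 with limma.

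Klf2, Klf4 and Klf6 are known to be induced quickly when tissue is dissociated, so immediate early genes were set beside them. Of 18 such genes, 7 were higher and 0 were lower, with a median of 0.44. The 4 with the smallest p were Socs3 (log2 fold change 0.91, SE 0.188), Fos (0.86, SE 0.184), Zfp36 (0.73, SE 0.162) and Ier2 (0.82, SE 0.199), which encode an inhibitor of cytokine signalling, an AP-1 subunit, an mRNA decay factor and a nuclear early response protein. Unadjusted, 1 gene was lower at p under 0.05, and DESeq2 and limma called none lower. None of the 18 was higher with library size scaling, which moved the median of all genes to -0.44, and 4 were higher without QZ1-hi replicate 2. Their summed level was 4805, 6436, 7120 and 4740 CPM in QZ1-hi and 3614, 4300, 5301 and 3198 CPM in QZ1-lo, 1.41-fold higher on average with overlapping libraries. In QZ1-hi the library with the highest sum, replicate 3, had the most Klf2 and Klf4, but replicate 4, with the lowest sum, had the second highest Klf4 (239 CPM). In QZ1-lo the library with the lowest sum, replicate 4, had the least Klf2, while Klf4 was higher there (67.3 CPM) than in replicate 3, which had the highest sum (60.9 CPM). Klf6 was highest in QZ1-hi replicate 2 and in QZ1-lo replicate 2, and these numbers link no libraries across populations. The part of this response in the Klf differences was not tested.

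**Figure D5:**
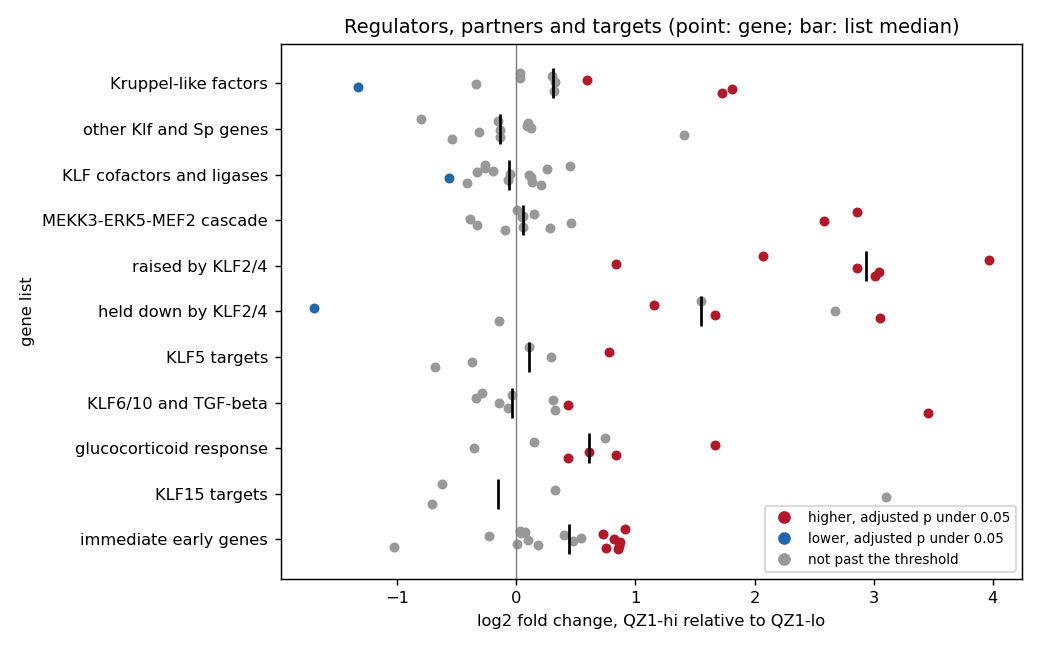
Log2 fold changes of QZ1-hi relative to QZ1-lo for the 10 Klf genes and for tested genes of 10 related lists. Each point is a gene, red if higher and blue if lower at an edgeR adjusted p under 0.05 and grey otherwise, and black bars are list medians. The list of genes raised by KLF2 and KLF4 has its median at 2.93, and the list of genes held down by them has the next highest, at 1.55. The glucocorticoid and immediate early lists have medians of 0.61 and 0.44, and the 10 Klf genes one of 0.31. Medians of the remaining lists lie between -0.15 and 0.11.

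Genes whose profile over the 8 libraries was nearest to that of Klf4, by Euclidean distance of gene-centred log2 CPM, were Cacnb2, a calcium channel subunit (distance 0.43), Robo2, an axon guidance receptor (0.50), and Arhgef3 (0.52), where the median gene was at 2.81. Their log2 fold changes were 1.82 (SE 0.521), 2.20 (SE 0.355) and 1.71 (SE 0.185), and Cacnb2, at 1.80 ± 0.497 CPM in QZ1-hi (SD, n = 4), lost its call when any 1 library was left out. Nearest to Klf5 were Slc39a4, a zinc importer (0.21), Scnn1a, a subunit of the epithelial sodium channel (0.27), and Pitpnm3 (0.30), where the median gene was at 2.26. Scnn1a fell from 277 ± 20.7 CPM in QZ1-lo to 105 ± 17.6 CPM in QZ1-hi (SD, n = 4 each, log2 fold change -1.40, SE 0.140). The distance includes the difference between the populations, with which the Klf genes were chosen.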

How the data were processed

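The authors sorted the cells, prepared total RNA libraries with a stranded SMARTer kit and assigned reads to genes in Rsubread. What they deposited are raw counts without normalization, and the submitters' processing notes name mm10 and DESeq2. Aligner, annotation and strand setting are not given in the sources used here. Totals ran from 18380918 to 26847938 counts per library, and from 8749446 to 16389316 outside mitochondrial and ribosomal RNA genes, which took up 43.7% to 65.6% of counts in QZ1-hi and 34.0% to 53.2% in QZ1-lo. Floors of 3 counts cover counting error only, as no molecular identifiers are described and reads may be copies of 1 molecule.

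Groups came from the condition label of each sample. Of 27179 Entrez identifiers, 25275 matched a symbol. The test was edgeR 4.0.16 in R 4.3.3 (TMM factors 0.660 to 1.35, filterByExpr with a minimum count of 10 and minimum total of 15, quasi-likelihood test over 15583 genes, Benjamini-Hochberg adjustment, threshold 0.05). An SE is |log2 fold change| over the root of its F statistic. Gene models were GENCODE M21 on GRCm38, and promoters were RefSeq's. The fit was tested on simulated data. P values measure the spread between the 4 libraries of each population, described in the series as biological replicates.

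Members and lists were chosen with earlier results of these data known. Named were all 10 members, the other Klf and Sp genes, at most 4 called genes of each other list with the smallest p, genes that did not pass by count, cell type markers by counts and sums, and the 3 nearest genes to the members with the highest and lowest fold change. Piezo1 and the single cell type markers named were chosen after their values were seen. The values of 1 list gene are not reported here. Alternatives were DESeq2 1.42.0, limma 3.58.1 (voom with quality weights), DESeq2 size factors, library size only, no filter, at least 10 counts in every library, removal of mitochondrial and ribosomal RNA genes, and each library left out.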

Additional observations from a re-analysis of the deposited data

Results flagged for a closer look

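Within a population of 4 libraries, a value was set apart when the gap between the highest or lowest library and its nearest neighbour exceeded Dixon's 95% critical value as a share of the range, and chance alone sets apart about 1 in 20 groups. Of 66 groups examined, 6 were set apart. Klf7 in QZ1-lo replicate 1 was at 10.6 CPM, below the other libraries of QZ1-lo at 14.6 to 15.3 CPM. Klf14 was at 1.88 CPM in QZ1-lo replicate 3 and at 0 in the remaining QZ1-lo libraries. Sp1 was at 88.0 CPM in QZ1-lo replicate 2, above 77.6 to 78.9 CPM in the others, and Sp9 was at 0.0894 CPM in QZ1-lo replicate 1, which is the floor of 3 counts there. The summed leukocyte markers stood at 6195 CPM in QZ1-hi replicate 4, of which 5763 CPM were Lyz2, against 2886 to 3356 CPM in the other QZ1-hi libraries. Without QZ1-hi replicate 4 the log2 fold changes of Klf2, Klf4 and Klf5 were 1.84, 1.82 and -1.31. The summed mesothelial markers stood at 268 CPM in QZ1-hi replicate 2 against 38.4 to 66.2 CPM, and without that library the same genes had 1.67, 1.82 and -1.43.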

How the results depend on the processing

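Klf2, Klf4 and Klf5 kept their direction and their side of the threshold under all 15 alternatives, with log2 fold changes of 1.28 to 1.88, 1.35 to 1.92 and -1.81 to -1.26. The genes were chosen from this contrast and refitted on the same libraries. Their calls therefore show dependence on processing only and lend the differences no further support. Klf9 lost its call with scaling by library size only (0.11), and Klf6 gained one there (-0.79), so that 2 of the 10 genes were higher and 2 were lower. That scaling gave 882 genes higher and 2509 lower over all genes, against 1540 and 1280, or 26.0% of calls higher against 54.6%, and 11 list genes higher and 14 lower, against 25 and 2 of 92. It reversed Klf3 (-0.13), Klf7 (-0.10), Klf10 (-0.42), Klf13 (-0.17), Klf15 (-0.42), Tgfbr2 (-0.052) and Nr3c1 (-0.0237), none of them past the threshold. The construction of the scaling shows part of this, since it moved the median of all genes to -0.44, and relative to that median Klf3, Klf7 and Klf13 stood at 0.32, 0.34 and 0.27. List genes lower were 7 with DESeq2 and 5 with limma, and the cause was not tested. Leaving out 1 library at a time gave 1136 to 1506 genes higher, 938 to 1201 lower, and 18 to 27 list genes higher and 2 to 4 lower. Klf10 then ranged from -0.060 to 0.19, below 0 in 3 cases, and Klf15 from -0.27 to 0.37, below 0 in 4. For the 28 other genes named, 9 of 195 values with another tool, scaling or filter and 29 of 224 with a library left out lost the call. No paired analysis was possible because the labels give neither a mouse nor a number that libraries of both populations share, and the replicate numbers used here only follow the order of the records. The sort divides a lung suspension into both populations, so libraries of 1 mouse may stand in both, which the fit does not use. Spread between libraries limits Klf15, depth limits the Klf and Sp genes that never exceeded 3 counts, and mixed cell populations limit all of these values.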
